A study of Mus musculus with 6 samples.

Results

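This comparison set a keratinocyte line that carries human integrin α3 against the α3-null line it was made from, across all genes on the array. The α3-null line (MK546) came from newborn mice that lack α3 and was made immortal by SV40 large T, a viral oncoprotein that sequesters p53 and Rb. The rescue line is that same line after stable transfection of human α3, so large T and the loss of mouse α3 given in the labels are common to both lines. Each line was profiled on 2 arrays, so the comparison used 4 of the 6 arrays of the series, and the other 2, from a wild-type line (MK116) that also carries large T, entered the model of the spread and are given beside the results for reference. All cells were kept at 33 °C on denatured collagen, in a medium with 0.05 mM CaCl2, 10 units per ml of interferon-γ and 10 ng per ml of EGF. The promoter that drives the human α3 cDNA, its protein level, and whether the rescue line is 1 clone or a pool are not given in these sources. The design text calls the arrays of a line biological replicates and does not say whether they came from separate cultures, so each p-value reflects only array-to-array spread within a single line of each kind.

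Integrins are receptors of an α and a β chain that tie the cell to its matrix and signal from there. Basal keratinocytes use α3β1 and α6β4 to hold laminin-332 in the basement membrane: α6β4 sits in hemidesmosomes, while α3β1 sits in focal contacts and at cell borders, where it associates with tetraspanins and signals through focal adhesion kinase, Src and Rac. In keratinocytes α3β1 is known for its roles in adhesion to laminin, spreading, migration over wounds, basement membrane assembly and the control of proteases and secreted factors. The comparison asks which transcripts differ once the null line holds an α3 subunit again.

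The arrays were Affymetrix Mouse Exon 1.0 ST arrays, which read exons with many short probes and combine them into 1 PLIER intensity (a linear brightness) for each of 23332 transcript clusters. Median intensity per array lay between 96.6 and 108, and intensities below 16 made up 10.1% to 10.7% of each array. Pearson's r of log2 intensity across clusters was 0.990 between the null arrays, 0.990 between the rescue arrays and 0.976 to 0.977 between a null and a rescue array (clusters are not independent replicates). Differences are given as log2(intensity + 16) in the rescue line minus the null line, with the standard error of the fit. The added 16 shrinks the differences of dim genes. A cluster was called, and is said to have risen or fallen, at an adjusted p under 0.05 in limma with Benjamini-Hochberg adjustment over all clusters. An exact permutation test of 2 arrays against 2 cannot give a p below 0.333, so the calls rest on limma's pooled model of the spread.

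limma called 2274 clusters higher in the rescue line (9.75% of all clusters) and 1311 lower (5.62%). All 3585 called clusters had arrays that did not overlap between the lines, as did 55.6% of all clusters. The split depends on scaling: higher calls made up 63.4% of calls on the deposited scale, 49.9% after quantile normalization (1917 higher and 1922 lower) and 40.9% after centring each array on its median (1565 higher and 2258 lower). Centring moved the median difference of all clusters from 0.024 to -0.096, and quantile normalization moved it to -0.035, so small differences are read against that shift. Under all 3 scalings 1518 clusters were higher and 1303 lower. A stricter set of 935 clusters (655 higher and 280 lower) stayed called in the same direction wherever tested in 14 other fits. These fits changed the scaling, pseudocount, filter, variance model or block, or left out an array. The filters removed dim clusters or those without exactly 1 symbol, and a removed cluster was not judged by that fit. Genes given values below belong to that set unless an exception is stated. At least 2-fold higher were 412 called clusters (1.77%), of which 314 are in the stricter set, and at least 2-fold lower were 132 (0.566%), of which 103 are in it. In 310 of the 412 both rescue arrays lay above all 4 null and wild-type arrays, and in 103 of the 132 both lay below all 4.

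**Figure D1:**
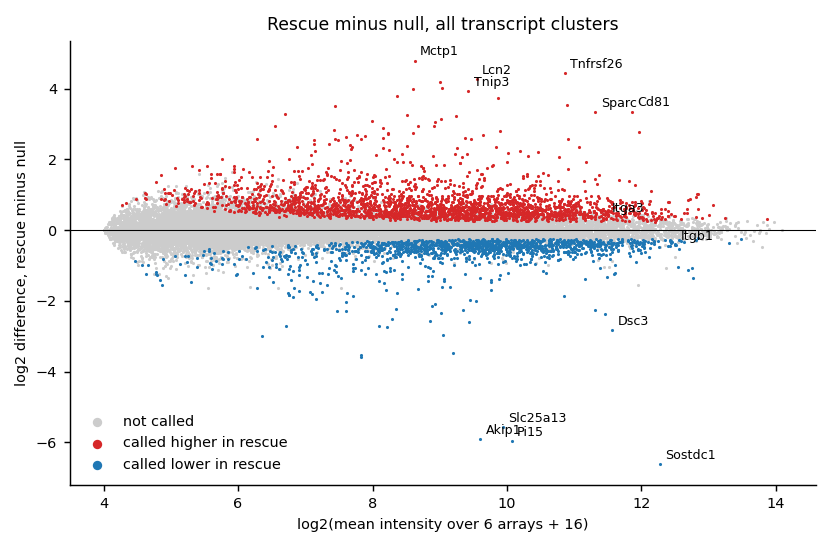
Each point is 1 of 23332 transcript clusters. The x axis is log2 of its mean intensity over the 6 arrays plus 16, the y axis is its log2 difference, rescue minus null, and colours mark the 2274 clusters called higher and the 1311 called lower in the rescue line; Sostdc1, Pi15, Akip1 and Slc25a13 stand lowest, at -6.62 to -5.57.

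Itga3, the mouse α3 gene, read 997 and 907 in the null line, 1218 and 1221 in the rescue line and 6364 and 6287 in wild type. The rescue arrays were both above the null arrays, by 0.35 ± 0.07 (limma adjusted p = 0.0219), and far below wild type. The null arrays were also far above the array medians given above, so an Itga3 signal was present in the line labelled null. Which part of the gene is deleted and which exons the probes read is not given in these sources, and the match of mouse probes to the human cDNA was not tested, so the level below wild type bears on the null label only in part and the rescue reading does not measure human α3. The call of the rescue line over the null line ended in 7 of the 14 other fits, among them quantile normalization (0.29, limma adjusted p = 0.0540), median centring (0.23, 0.0740) and the fit without null array 2 (0.29, 0.101). Itgb1, the β1 partner of α3, went the other way, from 7624 and 7643 to 5879 and 5494 (-0.42 ± 0.07, limma adjusted p = 0.0116), with wild type at 3917 and 4111. Its fall was lost when either null array was left out. Itgb1 lies on chromosome 8, where 15.8% of genes fell (below).

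Both lines had the markers of basal keratinocytes. Keratins 5 and 14, which pair into the filaments of basal cells, lay at 13389.5 and 14178 (Krt5) and 11888 and 11934 (Krt14) in the null line and at 13874 and 12997 and 11211 and 10794 in the rescue line, and neither was called. The hemidesmosome integrin gene Itgb4 was not called either, at 2881 and 2699 and 2711 and 2761. The other genes of the keratinocyte check were all called lower in the rescue line. Trp63 (-0.52) and Dsg3 (-0.57) are in the stricter set. Krt17 (-0.25 ± 0.06, from 13189 and 13086 to 11285 and 10750), Lamb3 (-0.39 ± 0.07), Itga6, Cdh1 and Cdh3 fell in calls that other fits ended. For other cell types, the markers were read as lists. No immune marker of 13 and no melanocyte marker of 10 was called, with summed intensities of 650 to 678 (null) and 640.1 to 706 (rescue) for the first and 560 to 579 and 548 to 560.2 for the second. Among 13 endothelial markers 1 rose (Flt1, below), with sums of 630.4 to 633 and 658 to 722. Of 16 fibroblast markers, the regulator Twist1 rose from 94.9 and 121 to 251 and 212 (1.00 ± 0.14), while Tcf21 (-0.72 ± 0.18) and the smooth muscle actin gene Acta2 (-0.60 ± 0.12) fell in calls that fits without an array could end, and the sums were 1372 to 1389 and 1404 to 1493. The defining genes Ptprc of leukocytes (25.8 to 27.5 on the 4 arrays), Pecam1 of endothelium (41.8 to 54.1) and Col1a1 of fibroblasts (197 to 237, above the array medians) were not called. In RNA from whole cultures, fewer cells of a type and less RNA per cell cannot be told apart.

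The largest rises covered membrane receptors, secreted defence proteins and signalling regulators. Mctp1, a calcium-binding membrane protein, stood at 26.6 and 22.2 in the null line and 1155 and 1036 in the rescue line, and the wild-type arrays were as dim as the null arrays, at 17.3 and 15.7. The difference was 4.78 ± 0.11 (limma adjusted p = 3.84e-05). Tnfrsf26, a member of the TNF receptor family, went from 185 and 165 to 4492 and 3796, above the 1237 and 1214 of wild type (4.44 ± 0.10, limma adjusted p = 3.84e-05). Lcn2, the lipocalin that withholds iron from bacteria by binding siderophores, went from 70.9 and 89.0 to 2009 and 1649.9, with wild type between them at 299.7 and 281 (4.26 ± 0.13, limma adjusted p = 8.74e-05). Wild type thus held different positions among the leading genes: Mctp1 was bright in the rescue line alone, and Lcn2 and Tnfrsf26 were brighter there than in either other line.

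Neurl3, an E3 ubiquitin ligase gene, and Tnip3, which encodes an A20-binding inhibitor of NF-κB, shared the pattern of Mctp1. Neurl3 went from 41.8 and 57.0 to 998 and 1048 (4.00 ± 0.16) with wild type at 58.2 and 44.2, and Tnip3 from 102 and 105 to 1965 and 1665 (3.93 ± 0.10) with wild type at 94.7 and 102. Speer3, from a multicopy gene family whose members the probes may not separate, rose by 4.19 ± 0.20, Glipr2, a Golgi-associated protein, by 4.02 ± 0.13 and the phospholipid scramblase gene Plscr2 by 3.78 ± 0.12. In another set the wild-type line was as bright as the rescue line or brighter. Gatm, which makes the precursor of creatine, went from 64.8 and 81.3 to 1337 and 1009.8 (wild type 1535 and 1464). Arhgdib went from 97.5 and 123 to 1456 and 1444 (wild type 4004 and 4239). Susd4, a complement regulator, went from 26.9 and 30.8 to 416 and 406 (wild type 647 and 575). The differences of these 3 genes were 3.73, 3.54 and 3.25, with limma adjusted p from 7.73e-05 to 0.000145.

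Among the falls, the secreted antagonist Sostdc1, which blocks BMP and Wnt ligands, was one of the brightest genes of the null line at 13996 and 15079.8 and fell to 115 and 150.4 (-6.62 ± 0.12, limma adjusted p = 2.90e-05). The rescue values lie beside those of wild type, 134 and 138. Pi15, a secreted protein of the CAP family, behaved alike, from 2985 and 3247 to 37.7 and 31.1 with wild type at 22.1 and 32.4 (-5.96 ± 0.14). Thbs2, a thrombospondin, fell from 626 and 728 to 85.8 and 90.6 (wild type 78.8 and 73.4) and Gpnmb, a lysosomal and melanosomal glycoprotein, from 575 and 677 to 76.8 and 85.2 (wild type 68.1 and 72.1). Other genes fell below both other lines. Dsc3, the desmocollin of basal keratinocyte desmosomes, read 4044 and 4376 in the null line, 4188 and 4339 in wild type and 546 and 618 in the rescue line (-2.82 ± 0.08). Tspan15, a tetraspanin that guides the protease ADAM10, went from 761 and 773 to 82.1 and 86.3 (wild type 749.9 and 622), Igf2bp3, an RNA-binding protein, from 355 and 397 to 18.9 and 13.9 (wild type 247 and 239.9), and Slc50a1, a sugar transporter, from 403 and 423 to 22.4 and 22.5 (wild type 1414 and 1151). The sorting adaptor gene Pacs1 (-3.53 ± 0.13), Rcbtb2 (-3.01 ± 0.17), Fam149a (-2.70 ± 0.16) and the selenoprotein gene Selenom (-2.56 ± 0.15) complete the set beside Gpx2, described with the glutathione genes.

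**Figure D2:**
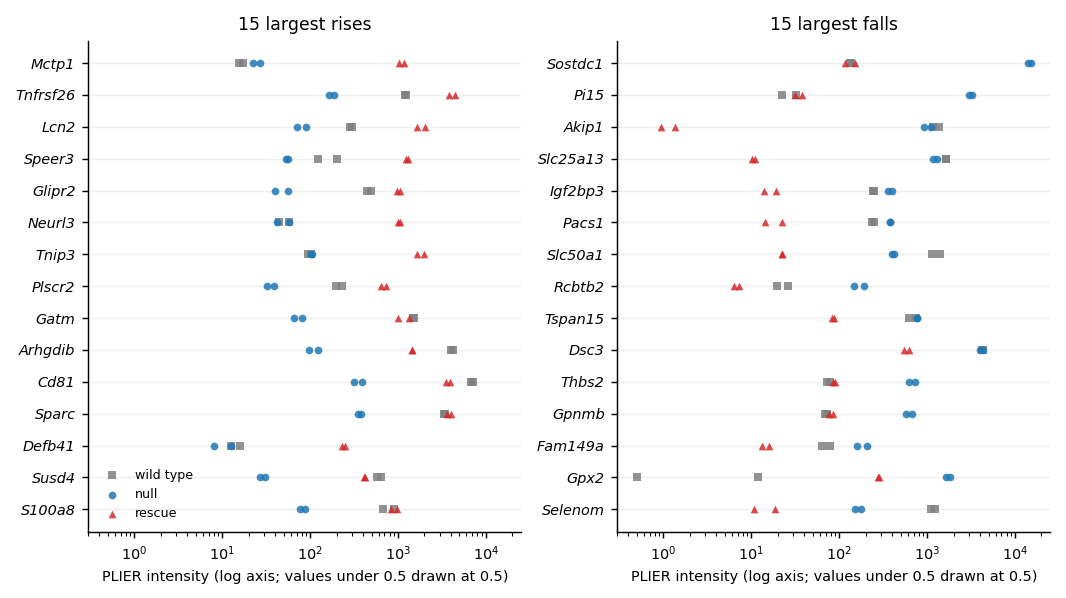
PLIER intensity on a log axis for the 15 called genes with the largest rises (left) and falls (right), 1 point per array, 2 arrays for each of the null (circles), rescue (triangles) and wild-type (squares) lines; values under 0.5 are drawn at 0.5. For Gatm, Sparc, Cd81, Arhgdib, Susd4 and S100a8 the wild-type points lie at or above the level of rescue or near it, while for Mctp1, Neurl3, Tnip3 and Defb41 they lie at the level of null.

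In 3 genes a line lay below 16 on both arrays while the other line was at 200 or more. Slc25a13, the mitochondrial aspartate and glutamate carrier, went from 1181 and 1300.2 to 10.9 and 10.0 (-5.57 ± 0.08), with wild type at 1649 and 1655. Its 3 nearest measured genes with a named symbol on each side along chromosome 6 (Dync1i1, Pdk4, Asb4, Sem1, Dlx5 and Tac1) differed by -0.16 to 0.13. Of these 6 neighbours 0 were called. Akip1, which binds protein kinase A, went from 921 and 1112 to 1.35 and 0.947 (-5.91 ± 0.13), with wild type at 1381 and 1166, and 0 of its 6 neighbours were called (-0.073 to 0.33). None of these named neighbours of either gene passed the test. For each of the 3 genes, predicted symbols and clusters without exactly 1 symbol were passed over, so closer ones were not looked at. Defb41, a β-defensin, went from 12.6 and 7.97 to 229 and 251 (3.29 ± 0.15), with wild type at 12.4 and 15.99, and of its 6 neighbours on chromosome 1 only Pi15, above, was called. Values below 16 lie under the constant added before the log, so the size of these differences is set in part by that constant.

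Genes were then grouped in 46 pathway lists. Among the 14860 genes with a symbol, 11.7% were called higher and 6.78% lower, with a median difference of 0.0053, and 3.86% and 1.63% belong to the stricter set. Shares of each list are read against those figures, and no list was tested as a set. Calls also depended on brightness. On every chromosome, genes with a mean intensity of at least 200 were called higher, and called lower, more often than all its genes. The figures for all genes were not matched to the brightness of a list, so a share above them does not by itself set a list apart.

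**Figure D3:**
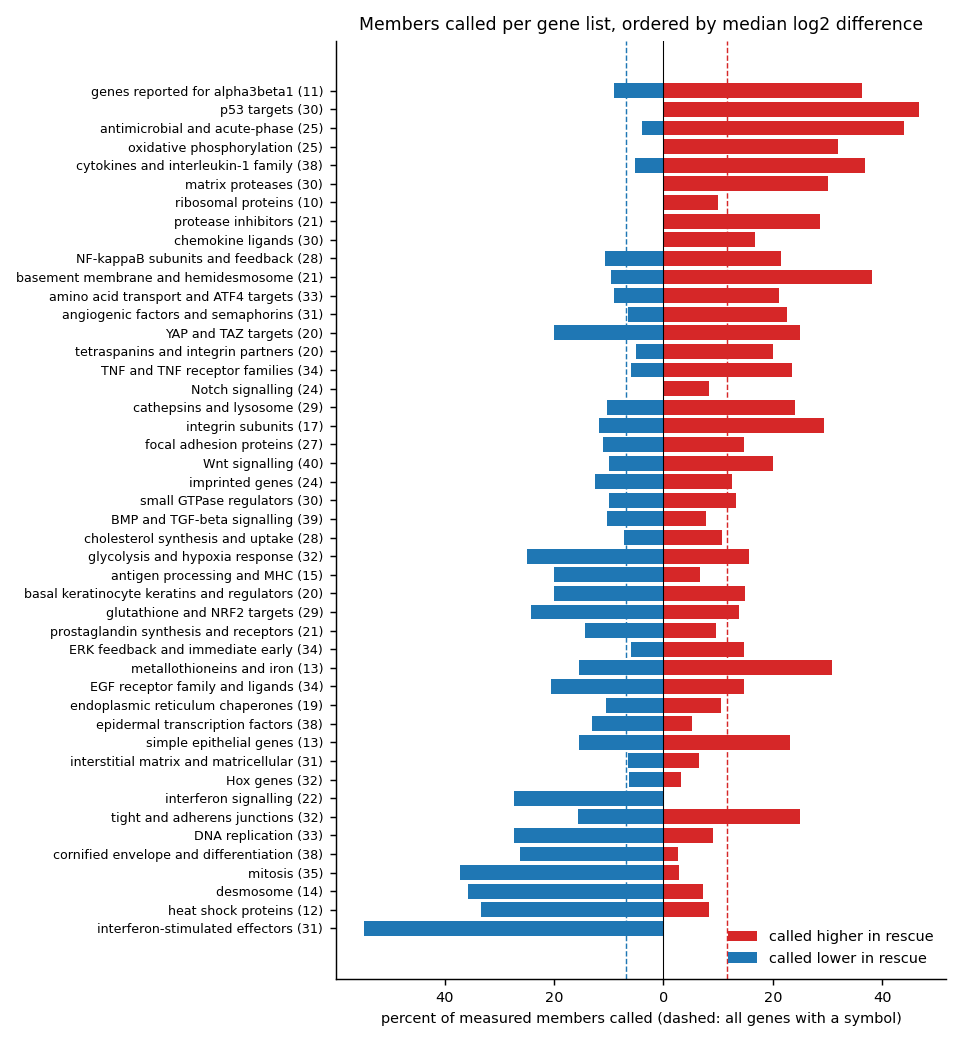
Percent of the measured members of each of 46 gene lists called higher (right, red) or lower (left, blue) in the rescue line, ordered by median log2 difference, with the number of members in brackets. Dashed lines mark 11.7% and 6.78% of all genes with a symbol; interferon effectors have the longest bar to the left (17 of 31) and p53 targets the longest to the right (14 of 30).

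Of 17 measured integrin subunit genes 5 rose and 2 fell (29.4% and 11.8%, beside 11.7% and 6.78% of all genes with a symbol), but 2 rose and 2 fell under all 3 scalings, and 2 rises and 0 falls are in the stricter set. Itga2, the α2 chain of the collagen receptor, went from 85.6 and 101 to 370.4 and 329.8 (1.75 ± 0.12, limma adjusted p = 0.000895), with wild type higher at 735 and 859. Itgav, the αv chain that binds RGD ligands such as fibronectin and vitronectin, went from 1417 and 1464 to 2045 and 1991 (0.48 ± 0.06). Here the wild-type line lay below both, at 1135 and 1174. Itga6, the laminin-binding partner of β4, went from 4894 and 5049.9 to 3874 and 3692 (-0.39 ± 0.06), a fall that was lost without either null array.

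Of 20 tetraspanins and other partners of integrins, 4 rose and 1 fell (Tspan15, above, on chromosome 10), which is 20% and 5% beside 11.7% and 6.78% of all genes. Cd81, a tetraspanin that forms complexes with α3β1, had the largest rise, from 319 and 390.4 to 3934 and 3553 (3.35 ± 0.11, limma adjusted p = 9.00e-05), with wild type at 7214 and 6753. Tspan1 went from 29.6 and 41.1 to 98.9 and 102 (1.19 ± 0.15), where wild type resembled null at 24.5 and 28.9. Cd47, the thrombospondin receptor that associates with αv and β3 integrins, went from 1241 and 1278 to 2585 and 2098 (0.88 ± 0.11). The other 15 of the 20 were not called. Of 27 focal adhesion genes 4 rose and 3 fell (14.8% and 11.1%). Fermt2, the kindlin that activates integrins in most cells other than blood cells, went from 32.7 and 40.7 to 127 and 124 (1.43 ± 0.11), with wild type at 236 and 237. Vinculin (Vcl), which links focal adhesions to actin, fell by -0.50 ± 0.07, and kindlin 1 (Fermt1), the main epidermal form, rose by 0.44 ± 0.06; both calls ended when null array 1 was left out.

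Among 21 basement membrane and hemidesmosome genes 8 rose and 2 fell (4 and 2 under all 3 scalings). Sparc, a matrix glycoprotein that binds collagen, went from 352 and 375 to 4049 and 3595 (3.34 ± 0.08, limma adjusted p = 3.84e-05), next to the 3461 and 3349 of wild type. Fbln2, a fibulin that joins laminins and other basement membrane proteins, went from 539 and 516 to 2211 and 2272 (2.05 ± 0.06, limma adjusted p = 8.73e-05), with wild type at 2395 and 2513. The basement membrane collagen gene Col4a1 rose from 217 and 193 to 391 and 429 (0.95 ± 0.10); it lies in the chromosome 8 run described below. Col17a1, the transmembrane collagen of hemidesmosomes, fell from 3729.6 and 3681 to 2172 and 2484 (-0.67 ± 0.08), below the 2778 and 2860.4 of wild type. Of 31 interstitial matrix genes 2 rose and 2 fell (6.45% each, beside 11.7% and 6.78% of all genes with a symbol). The matricellular gene Ccn1 rose from 567 and 472 to 1321 and 1033 (1.15 ± 0.14) and Tgfbi, a collagen-binding protein, fell from 260.1 and 318 to 115 and 129.5 (-1.14 ± 0.12), beside Thbs2.

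All called matrix proteases and protease inhibitors were higher in the rescue line. Of 30 proteases 9 rose and 0 fell (8 and 0 under all 3 scalings), and without genes on chromosomes 8 and 10 the count was 6 of 24; the median difference was 0.16, with 0.11 after quantile normalization and 0.042 after centring. The stromelysin gene Mmp3 went from 20.3 and 20.5 to 157 and 155 (2.24 ± 0.20, limma adjusted p = 0.00222), and the collagenase gene Mmp13 from 22.7 and 29.2 to 128 and 105 (1.66 ± 0.19). These are dim genes in the null line. Adam9, a membrane metalloprotease, went from 1677 and 1808 to 2791 and 2795 (0.68 ± 0.07), the aggrecanase gene Adamts4 from 92.4 and 95.1 to 189 and 192 (0.91 ± 0.09) and heparanase (Hpse) from 53.6 and 63.8 to 152 and 127 (1.06 ± 0.12). Of 21 inhibitors 6 rose and 0 fell, also under all 3 scalings. Timp1 and Timp2, which inhibit metalloproteases, went from 746 and 909 to 1756 and 1539 (0.98 ± 0.12) and from 2343 and 2402 to 3565 and 3365 (0.54 ± 0.06). Serpinb2, the plasminogen activator inhibitor 2, went from 4396 and 4431 to 8748 and 8063 (0.93 ± 0.07), the level of wild type (8646 and 8844). Serpinb6b rose to 2385 and 2114 from 558 and 592 (1.94 ± 0.14), where wild type was lowest at 171 and 228.

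Of 11 genes that published work ties to α3β1 in keratinocytes or tumour cells, 4 rose, 1 fell and 6 were not called. That list was put together with such reports known, and some may rest on these very arrays, so its directions are not independent evidence. Beside Fbln2, Sparc and Timp1, the urokinase gene Plau rose from 3835 and 3743 to 6148 and 5379 (0.60 ± 0.08), a call that ended without null array 2. Ptgs2, the inducible cyclooxygenase, fell from 3692 and 3882 to 1622 and 1387 (-1.33 ± 0.09, limma adjusted p = 0.000938), and wild type lay near the null line at 3193 and 3446. Mmp9, the gelatinase gene, was at 53.2 and 68.1 and 132 and 89.5 (0.71 ± 0.19, limma adjusted p = 0.0601), and Il1a, the interleukin-1α gene, at 4190.3 and 5006 and 6308 and 5915 (0.41 ± 0.11, 0.0647). Bmp1 (0.10 ± 0.06), Plaur (0.082 ± 0.10), Ccn2 (-0.24 ± 0.14) and Sema3a (-0.093 ± 0.15) had limma adjusted p from 0.329 to 0.747.

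Among genes that join keratinocytes to each other, the called desmosome genes were mostly lower. Of 14 desmosome genes 5 fell under every scaling, and the single rise (Ppl) was lost with quantile normalization and centring. The median was -0.24 (-0.30 and -0.36 with those scalings). Beside Dsc3, the basal desmoglein gene Dsg3 fell from 2668 and 2772 to 1779.8 and 1866 (-0.57 ± 0.07), at the level of wild type (1732 and 1824), and the plaque protein gene Pkp2 from 70.1 and 85.2 to 22.5 and 29.0 (-1.17 ± 0.13), where wild type stood at 468 and 487. Plakoglobin (Jup, -0.40 ± 0.06) and plakophilin 1 (Pkp1, -0.55 ± 0.09) fell in calls lost without either null array. Of 32 tight and adherens junction genes 8 rose and 5 fell, and without chromosomes 8 and 10 the falls were 2 of 25. The claudin gene Cldn3 went from 285 and 312 to 2154 and 1906 (2.70 ± 0.10) and Cldn6 from 1703 and 1557 to 2388 and 2413 (0.56 ± 0.07), both dim in wild type (15.1 and 12.1, and 11.04 and 11.46). N-cadherin (Cdh2), usually low in epithelia, went from 291 and 278 to 847 and 727 (1.41 ± 0.09) and the nectin gene Nectin3 from 100.1 and 93.9 to 334 and 279.5 (1.51 ± 0.10). E-cadherin (Cdh1) was at 1835 and 1746 and 1402 and 1285 (-0.41 ± 0.07) and P-cadherin (Cdh3) at 1945 and 1888 and 1478 and 1373 (-0.42 ± 0.07), calls that ended without either null array (and, for Cdh1, without the variance trend).

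Differentiation and lineage genes were mostly lower or not called. Of 38 cornified envelope and differentiation genes 10 fell under all 3 scalings, 1 rose on the deposited scale alone and 27 were not called (median -0.15, and -0.27 with quantile normalization and with centring). Sprr1a, a proline-rich envelope precursor, fell from 1674 and 1676 to 285 and 332 (-2.38 ± 0.09, limma adjusted p = 0.000108), although wild type was highest at 6144 and 6603. The skin protease gene Asprv1 fell from 323 and 335 to 124 and 139.5 (-1.22 ± 0.08; wild type 3974 and 4220.1) and suprabasin (Sbsn) from 666 and 689 to 241 and 243 (-1.42 ± 0.13). The medium holds calcium low, which keeps keratinocytes from differentiating in culture. Of 20 basal keratinocyte genes 3 rose and 4 fell. Trp63, the p63 transcription factor of stratified epithelia, fell from 1197 and 1299 to 870.1 and 864 (-0.52 ± 0.07), the stress keratin gene Krt16 from 1551 and 1453 to 726 and 620.4 (-1.14 ± 0.09), and the keratinocyte growth factor receptor gene Fgfr2 from 288 and 266 to 66.7 and 73.6 (-1.77 ± 0.09). Aqp3, the water and glycerol channel, rose from 220.4 and 275 to 972 and 933 (1.88 ± 0.11), Lrig1, a stem cell marker that restrains EGF receptors, from 354 and 365 to 597 and 617 (0.73 ± 0.07), and Dlk2 by 0.90 ± 0.12. Of 13 simple epithelial genes 3 rose and 2 fell, with a median of -0.059 (-0.18 with either other scaling). The rises included the keratin gene Krt19, from 758 and 980.4 to 5644 and 6256 (2.76 ± 0.14, limma adjusted p = 0.000304), next to wild type (5447 and 4755). The keratin gene Krt18 rose from 2383 and 2592 to 3690.2 and 3564 (0.54 ± 0.07). Of 38 epidermal transcription factors 5 fell under all 3 scalings and the 2 rises were lost, with Sox2 down from 857 and 951 to 372 and 473 (-1.08 ± 0.13; wild type 20.8 and 19.3) and Meis1 from 265 and 254 to 136 and 157 (-0.76 ± 0.10).

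Interferon-stimulated genes formed the list with the largest share of falls. These are antiviral effectors, switched on by STAT and IRF factors that bind an interferon-response element in their promoters, and interferon-γ was in the medium of both lines. Of 31 measured effectors 17 fell and 0 rose under each of the 3 scalings, and 9 of the falls are in the stricter set. The median difference was -0.49 on the deposited scale, -0.55 after quantile normalization and -0.61 after centring, beside 0.0053 over all genes. Ifit1, which binds foreign RNA, went from 688 and 1003 to 272 and 246 (-1.62 ± 0.18, limma adjusted p = 0.00403), with wild type between them at 390.2 and 438. Ifit2 went from 236 and 272 to 75.8 and 82.3 (-1.50 ± 0.11) and Cmpk2, a mitochondrial nucleotide kinase, from 439.5 and 478 to 165 and 142 (-1.49 ± 0.10). Rsad2 (viperin), which makes a chain-terminating nucleotide, went from 639 and 609.8 to 314 and 321 (-0.94 ± 0.07), Samhd1, which removes nucleotides, from 1263 and 1369 to 669.6 and 718 (-0.91 ± 0.07), and the guanylate-binding protein gene Gbp3 from 3377 and 3495 to 2090.2 and 1854 (-0.80 ± 0.10). The arrays of these lines did not overlap in these 6 genes, which holds for each called cluster and for 55.6% of all clusters. Parp14 (-0.98 ± 0.09) and Oasl2 (-0.78 ± 0.09) fell likewise.

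Of 22 interferon receptors, kinases and transcription factors, 6 fell and 0 rose, also under all 3 scalings. Without chromosomes 8 and 10 the falls were 4 of 18. Stat2, a transcription factor of the type I interferon response, went from 786 and 827 to 399 and 405 (-0.98 ± 0.07, limma adjusted p = 0.00108), with wild type at 502 and 539. It lies on chromosome 10, where many genes were lower (below). The receptor kinase genes Jak1 and Jak2 went from 1147 and 1225 to 817 and 809 (-0.54 ± 0.06) and from 628 and 662 to 388 and 414 (-0.67 ± 0.07). Irf1, Irf2 and Irf7 fell in calls that several fits ended, 4 or 5 of the 14. Among 15 genes of antigen processing 3 fell and 1 rose: the immunoproteasome subunit gene Psmb10 went from 3114 and 3605 to 2071 and 2040.0 (-0.70 ± 0.08), Erap1, which trims peptides for MHC class I, from 2297 and 2365 to 1497 and 1516 (-0.62 ± 0.06), and the checkpoint ligand gene Cd274 from 999 and 1177 to 610.2 and 476 (-0.99 ± 0.14), the last call ending without null array 2.

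Promoter windows of 4 interferon genes that fell, picked because they hold the motif, are shown from RefSeq annotation of GRCm38.p6, each 300 bases from 250 before to 50 after the gene's start on its own strand. Capitals mark matches to GAAANNGAA on either strand (TTCNNTTTC as read here), the core of an interferon-response element, and overlapping matches run together. They are Ifit1 (chr19:34640639-34640938, + strand), Rsad2 (chr12:26456403-26456702, - strand), Gbp3 (chr3:142559794-142560093, + strand; the 1 of 2 windows of the gene that holds a match) and Stat2 (chr10:128270248-128270547, + strand).
Ifit1: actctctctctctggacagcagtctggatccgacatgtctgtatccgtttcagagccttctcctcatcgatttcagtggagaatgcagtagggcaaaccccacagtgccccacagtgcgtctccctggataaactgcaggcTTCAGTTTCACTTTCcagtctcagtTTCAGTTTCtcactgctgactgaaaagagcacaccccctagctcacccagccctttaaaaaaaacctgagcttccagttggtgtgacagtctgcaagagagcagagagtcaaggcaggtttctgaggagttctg
Rsad2: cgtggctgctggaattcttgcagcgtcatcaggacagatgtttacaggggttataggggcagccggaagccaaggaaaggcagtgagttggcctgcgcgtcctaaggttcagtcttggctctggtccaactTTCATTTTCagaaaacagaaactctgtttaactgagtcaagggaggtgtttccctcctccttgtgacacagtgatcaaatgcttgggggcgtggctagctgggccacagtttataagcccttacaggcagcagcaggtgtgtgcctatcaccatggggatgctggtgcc
Gbp3: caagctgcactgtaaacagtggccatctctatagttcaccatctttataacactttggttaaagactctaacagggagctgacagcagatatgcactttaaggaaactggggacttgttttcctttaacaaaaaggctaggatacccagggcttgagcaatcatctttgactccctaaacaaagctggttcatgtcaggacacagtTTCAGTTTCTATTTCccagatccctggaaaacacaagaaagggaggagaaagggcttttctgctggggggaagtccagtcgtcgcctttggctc
Stat2: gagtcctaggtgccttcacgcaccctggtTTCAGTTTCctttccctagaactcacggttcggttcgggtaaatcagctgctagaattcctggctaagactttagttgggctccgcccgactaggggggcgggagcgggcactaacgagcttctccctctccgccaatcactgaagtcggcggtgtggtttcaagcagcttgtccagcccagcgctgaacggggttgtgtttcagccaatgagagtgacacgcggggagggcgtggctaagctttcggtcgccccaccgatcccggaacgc
The motif was found in 6 of 11 effectors that fell and had a window, and in 6 of 9 that were not called, against 9.76% of 27025 genes with a window. Of the 6 signalling genes that fell, 2 held it, against 1 of 15 not called. Differences between these shares were not tested.

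Most called defence and cytokine genes were higher. Of 25 antimicrobial and acute-phase genes 11 rose and 1 fell (10 and 1 under all 3 scalings), with 9 of the rises at least 2-fold and a median of 0.29 (0.25 and 0.17 with quantile normalization and centring). S100a8, a subunit of calprotectin, went from 75.8 and 87.3 to 829 and 962 (3.22 ± 0.15, limma adjusted p = 0.000231), beside 679 and 891 in wild type. The nitric oxide synthase gene Nos2 went from 295 and 331 to 1461 and 1636 (2.25 ± 0.10), also near wild type (1549 and 1697). The secretory leukocyte protease inhibitor gene Slpi went from 312 and 439 to 1781 and 1662 (2.17 ± 0.15). Others exceeded both lines: the plasma carrier protein gene Orm1 went from 584 and 628 to 2776 and 2554 (wild type 504 and 523) and lactoferrin (Ltf) from 37.8 and 37.9 to 192 and 206 (wild type 35.9 and 41.1), by 2.11 ± 0.08 and 1.996 ± 0.11. The acute-phase gene Saa3 (1.65 ± 0.14) and the β-defensin gene Defb1 (1.32 ± 0.16) rose as well, beside Lcn2.

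Of 38 cytokines and interleukin-1 family genes 14 rose and 2 fell (10 and 2 under all 3 scalings; median 0.18, with 0.13 after quantile normalization and 0.058 after centring). Il1f6, the epidermal cytokine IL-36α, went from 37.6 and 55.2 to 408 and 342 (2.66 ± 0.16, limma adjusted p = 0.000622). The colony-stimulating factor genes rose together. Csf1, for macrophages, went from 168 and 179 to 509.6 and 430.1 (1.35 ± 0.11), Csf2, for granulocytes and macrophages, from 165 and 158 to 598 and 481 (1.64 ± 0.11), and Csf3, for granulocytes, from 298 and 344 to 997 and 899 (1.52 ± 0.10). Il34, a second ligand of the CSF1 receptor that keratinocytes make for Langerhans cells, went from 46.2 and 55.2 to 253 and 229 (1.95 ± 0.11) and Il23a, a subunit of interleukin-23, from 72.3 and 95.9 to 297 and 212 (1.43 ± 0.19). Of 30 chemokine ligands 5 rose and 0 fell (2 and 0 under all 3 scalings). Cxcl5, which draws neutrophils, went from 5040.1 and 5082 to 10088 and 8623 (0.88 ± 0.09) and Ccl25, on chromosome 8, from 135 and 144 to 668 and 549 (1.999 ± 0.12).

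Of 34 genes of the TNF and TNF receptor families 8 rose and 2 fell. Apart from Tnfrsf26, the receptor gene Tnfrsf18 (GITR) rose from 76.5 and 97.9 to 185 and 187 (0.98 ± 0.12), while Tnfrsf14, the receptor of LIGHT, fell from 309 and 299 to 139 and 134 (-1.07 ± 0.08). Of 28 NF-κB subunits and feedback genes 6 rose and 3 fell, the same counts under all 3 scalings, and 6 rose and 1 fell among the 25 that lie outside chromosomes 8 and 10. The atypical inhibitor gene Nfkbiz went from 788 and 780.0 to 1242 and 1227 (0.64 ± 0.06) and Tnip1, an A20 partner like Tnip3, from 152 and 176 to 293 and 287 (0.77 ± 0.09). Nfkbia, the inhibitor IκBα, was at 838 and 1026 and 1452 and 1424 (0.62 ± 0.11, lost without either rescue array), and Tnfaip3, the A20 deubiquitinase on chromosome 10, at 388 and 410.1 and 303 and 300.1 (-0.39 ± 0.07, lost in 6 fits).

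The promoters of Nfkbia (chr12:55492598-55492897, - strand) and Tnfaip3 (chr10:19015361-19015660, - strand; 1 of 2 windows of the gene) are shown because these feedback genes went opposite ways and both hold a κB-like match. Windows and build are as above, and capitals mark GGANNTTCC on either strand (GGAANNTCC).
Nfkbia: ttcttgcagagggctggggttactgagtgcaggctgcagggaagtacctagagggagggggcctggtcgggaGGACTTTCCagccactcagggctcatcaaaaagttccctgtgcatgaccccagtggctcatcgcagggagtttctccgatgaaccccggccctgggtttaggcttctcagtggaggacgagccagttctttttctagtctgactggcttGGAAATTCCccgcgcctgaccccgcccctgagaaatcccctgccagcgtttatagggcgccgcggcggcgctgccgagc
Tnfaip3: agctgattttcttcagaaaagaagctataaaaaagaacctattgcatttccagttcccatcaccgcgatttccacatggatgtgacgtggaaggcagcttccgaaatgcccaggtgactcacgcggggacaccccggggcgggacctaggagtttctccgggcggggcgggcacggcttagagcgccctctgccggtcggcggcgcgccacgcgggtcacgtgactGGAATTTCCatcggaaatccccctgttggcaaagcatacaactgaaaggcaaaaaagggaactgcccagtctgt
A match was present in 2 of 5 NF-κB list genes that rose and had a window, 3 of 3 that fell and 4 of 16 not called, against 4.86% of all genes with a window.

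All called p53 targets were higher. Of 30 measured targets 14 rose and 0 fell (46.7% higher; 12 higher under all 3 scalings), and 8 of these are in the stricter set. The median difference was 0.41 (0.35 and 0.29 with quantile normalization and centring). Large T, which binds p53, is present in both lines. The death receptor gene Fas went from 93.4 and 98.1 to 355 and 308 (1.63 ± 0.10, limma adjusted p = 0.000688) and Eda2r, a TNF receptor family member for ectodysplasin A2, from 575 and 624 to 1758 and 1766 (1.53 ± 0.09, 0.000467). Wild type lay between null and rescue for both, at 195 and 216 and 1287 and 1480.1. Trp53inp1, a cofactor in autophagy and cell death, went from 567 and 596 to 1617 and 1686 (1.48 ± 0.06), Dcxr, a carbonyl reductase, from 641 and 729 to 1730.0 and 1659 (1.29 ± 0.08), and Ccng1, cyclin G1, from 6115 and 5819.7 to 10183 and 9280.3 (0.70 ± 0.08). The antiproliferative gene Btg2 (0.90 ± 0.08), the RNA-binding gene Zmat3 (0.90 ± 0.08) and the translesion polymerase gene Polk (0.65 ± 0.08) rose as well.

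**Figure D4:**
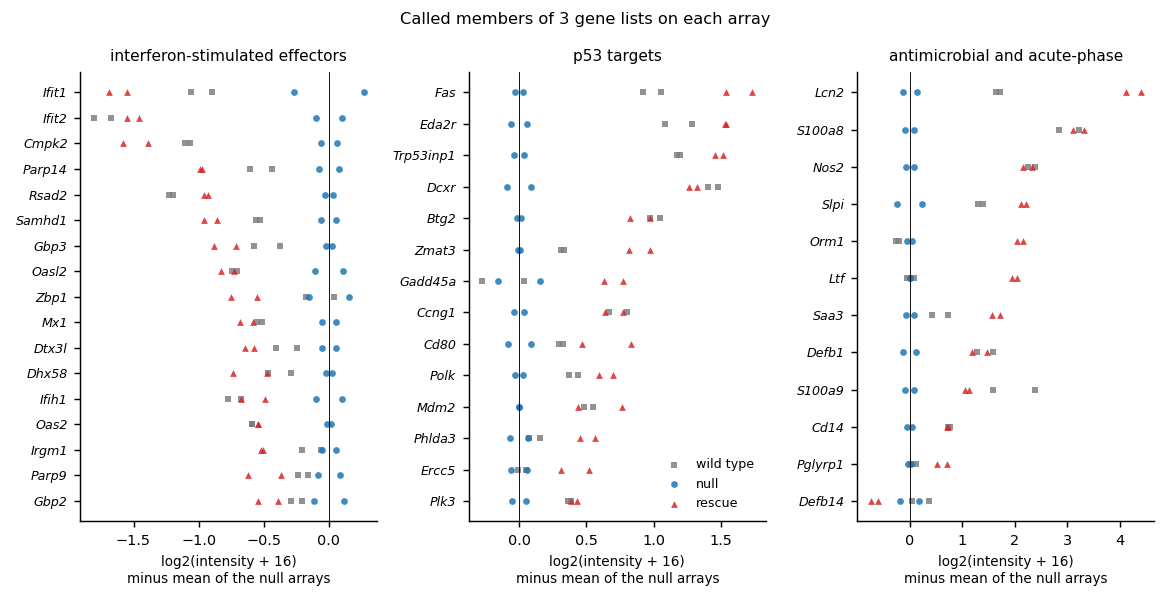
Called members of 3 lists (17 interferon effectors, 14 p53 targets, 12 antimicrobial and acute-phase genes), each array as log2(intensity + 16) minus the mean of the null arrays, with null as circles, rescue as triangles and wild type as squares. All rescue points lie below 0 in the first panel and above 0 in the second; in the third, Defb14 is the 1 gene with rescue points below 0.

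Most called cell-cycle genes were lower, by small amounts. Of 35 mitosis genes 13 fell under all 3 scalings and 1 rose on the deposited scale only, with a median of -0.17 (-0.29 with either other scaling). The kinesin gene Kif11, which separates spindle poles, went from 2081 and 2126 to 1434 and 1419.9 (-0.55 ± 0.06, limma adjusted p = 0.00341), topoisomerase IIα (Top2a) from 3317 and 3403 to 2250.0 and 2350.4 (-0.54 ± 0.06) and Cdc20, an activator of the anaphase-promoting complex, from 1448 and 1528 to 1072 and 1081 (-0.46 ± 0.06). In all 3 the wild-type arrays lay below the null arrays. Of 33 DNA replication genes 9 fell and 3 rose, and without chromosomes 8 and 10 the falls were 7 of 28. Mcm5, a subunit of the replicative helicase, went from 2203 and 2253 to 1264 and 1189 (-0.85 ± 0.07). Against that direction, the clamp loader gene Rfc3 rose from 1622 and 1724 to 2634 and 2542 (0.63 ± 0.07) and Ccne2, cyclin E2, from 902 and 895 to 1429 and 1279 (0.58 ± 0.07). The proliferation marker gene Mki67 was at 511 and 533 and 285 and 338 (-0.72 ± 0.13), a call lost without either null array or rescue array 1.

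Enzymes of redox and lipid mediator metabolism changed in both directions. Of 29 glutathione and NRF2 target genes 7 fell and 4 rose, and without chromosomes 8 and 10 the falls were 5 of 24. Gsta4, a glutathione transferase for lipid aldehydes, went from 12153 and 12869 to 4475 and 5411 (-1.34 ± 0.11, limma adjusted p = 0.00127), toward the 3198 and 3461 of wild type. Gpx2, the glutathione peroxidase of epithelia, went from 1835 and 1651 to 280.1 and 273 (-2.59 ± 0.25), and on the wild-type arrays it read 11.9 and 0.0114; with a pseudocount of 1 its adjusted p was 0.182. The quinone reductase gene Nqo1 fell by -0.96 ± 0.12 and Pgd, of the pentose phosphate pathway, by -0.62 ± 0.07, while the microsomal transferase gene Mgst1 (1.14 ± 0.12) and the carbonyl reductase gene Cbr1 (0.74 ± 0.07) rose. Of 21 genes of prostaglandin synthesis and reception 2 rose and 3 fell (9.52% and 14.3%, beside 11.7% and 6.78% of all genes). Pla2g4a, the phospholipase that releases arachidonic acid, went from 5171 and 5519.5 to 2479.9 and 2036 (-1.24 ± 0.10), alongside Ptgs2. The prostaglandin E synthase gene Ptges rose from 544 and 581 to 1075 and 959 (0.83 ± 0.09) and the prostaglandin transporter gene Slco2a1 from 41.0 and 49.7 to 92.6 and 99.5 (0.87 ± 0.12; wild type 1332 and 1553).

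Among stress and nutrient genes, all 5 called heat shock genes of 12 are in the stricter set. The chaperone gene Hsph1 fell from 1047 and 1078 to 674 and 651 (-0.67 ± 0.06), Dnajb4 from 1672 and 1822 to 941 and 909.6 (-0.90 ± 0.07), the co-chaperone gene Bag3 from 668 and 639.5 to 361 and 389 (-0.78 ± 0.07) and the heat shock factor gene Hsf2 by -0.62 ± 0.08. The small heat shock protein gene Cryab rose from 1313 and 1434 to 2815 and 2623 (0.98 ± 0.07) and lies in the chromosome 9 run below. The median of this list was -0.33 (-0.42 and -0.45 with quantile normalization and centring). Of 25 oxidative phosphorylation genes 8 rose and 0 fell, but 5 rose under all 3 scalings and 0 stayed called in every other fit; Uqcrq, of complex III, led with 0.72 ± 0.10 and was lost without null array 1. Of 32 glycolysis and hypoxia genes 5 rose and 8 fell (2 and 8 under all 3 scalings), and without chromosomes 8 and 10 the falls were 4 of 27. The prolyl hydroxylase gene Egln3, a hypoxia target, fell from 89.1 and 96.2 to 23.5 and 27.4 (-1.39 ± 0.10; wild type 901 and 850.1). The glutamine transporter gene Slc38a1 rose from 142 and 149 to 933 and 981 (2.59 ± 0.07, limma adjusted p = 5.74e-05), at the level of wild type (846 and 839), and the broad amino acid transporter gene Slc6a14 from 26.8 and 31.8 to 94.2 and 89.6 (1.26 ± 0.10), far under wild type (1598 and 1811). The desaturase gene Scd1 fell from 833 and 904 to 347 and 311 (-1.36 ± 0.09). The metallothionein gene Mt4, of stratified epithelia, fell from 5551 and 5298 to 1001 and 1236 (-2.27 ± 0.11), beside wild type at 1051 and 945.

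Growth factor lists held calls in both directions. Of 34 EGF receptor family genes and other growth factors 5 rose and 7 fell, and without chromosomes 8 and 10 the falls were 4 of 28. Epgn, the EGF receptor ligand epigen, went from 239.6 and 252 to 36.9 and 34.3 (-2.34 ± 0.08, limma adjusted p = 9.75e-05), with wild type at 1275 and 1188, and Nrg1, a ligand of ERBB3, from 2212 and 2312 to 1465 and 1336 (-0.69 ± 0.07). Of 40 Wnt pathway genes 8 rose and 4 fell. The ligand genes Wnt5a, Wnt7b and Wnt9a went from 30.6 and 31.5 to 119 and 118 (1.51 ± 0.11), from 192 and 181 to 454 and 415 (1.15 ± 0.09) and from 169 and 159 to 351 and 307 (0.94 ± 0.12). Porcn, the acyltransferase that Wnt secretion needs, rose from 774 and 747 to 1517 and 1530.5 (0.99 ± 0.07). The secreted Wnt antagonist gene Sfrp1 fell from 54.1 and 61.2 to 8.72 and 9.21 (-1.56 ± 0.11), beside Sostdc1. Of 39 BMP and TGF-β signalling genes 3 rose and 4 fell (7.69% and 10.3%, beside 11.7% and 6.78% of all genes with a symbol). The co-receptor gene Tgfbr3 rose from 102 and 83.4 to 264 and 291 (1.44 ± 0.12). Smad1, which carries BMP signals, and Ltbp1, which holds latent TGF-β, fell by -0.90 ± 0.11 and -0.80 ± 0.08. Among 31 angiogenic factors and semaphorins 7 rose and 2 fell (3 and 2 under all 3 scalings). Vegfc, the lymphatic growth factor, went from 64.2 and 56.7 to 460.0 and 412 (2.56 ± 0.11, limma adjusted p = 0.000181), and its relative Vegfd went down from 799.8 and 787 to 479 and 418 (-0.80 ± 0.09). Sema3e rose from 40.3 and 27.1 to 179 and 182 (1.995 ± 0.14), the VEGF receptor gene Flt1 by 0.80 ± 0.10, and the semaphorin and VEGF co-receptor gene Nrp1 fell from 2309.7 and 2532 to 1223 and 1228 (-0.97 ± 0.07). Of 20 YAP and TAZ targets 5 rose and 4 fell, and without chromosomes 8 and 10 the falls were 2 of 17. Ptpn14 (0.80 ± 0.09) and Amotl2 (0.66 ± 0.08), which restrain YAP, rose with Ccn1, and tissue factor (F3, -0.93 ± 0.11) fell.

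Differences also depended on position in the genome. For this description 14827 genes were placed in the gene order of GRCm38.p6. Of 702 genes on chromosome 10, 168 fell (23.9%) and 18 rose (2.56%), while on the other chromosomes together 5.93% fell and 12.2% rose. The median difference was -0.13 on chromosome 10 and lay between -0.083 and 0.070 on each of the others. Among genes with a mean intensity of at least 200 the contrast was wider, with a median of -0.30 for 351 genes of chromosome 10 and 0.059 for 6935 others. The shift ran along most of the chromosome: 650 of 678 windows of 25 neighbouring genes (95.9%) had a median below 0, against 44.4% of windows elsewhere. A window started at each gene in turn, so neighbouring windows overlap and are not separate observations. For the same bright genes of chromosome 10 the median was 0.22 in null minus wild type and -0.059 in rescue minus wild type. Bright genes of the other chromosomes had medians of 0.040 and 0.11 in these comparisons, which share arrays with this one. Stat2, Tspan15, Hsf2, Shmt2 and Pfkl are among the named genes of chromosome 10 that fell. Il23a, above, is a gene there that rose. Chromosomes 8 (15.8% fell and 10.8% rose) and 19 (12.5% fell and 7.17% rose) also had more falls than rises. Their genes with a mean intensity of at least 200 had medians of -0.15 and -0.094. Itgb1, Mcm5, Psmb10 and Cdh3, which fell, lie on chromosome 8, and Ifit1, Ifit2, Jak2, Cd274 and Kif11 on chromosome 19. List counts were not recomputed without chromosome 19.

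The shorter runs with the largest medians lay on chromosomes 8 and 9. On chromosome 8, 25 neighbouring genes from Lrrc8e to Arhgef7 had a median of 0.87, with 18 called higher and 0 lower; Zfp958 (2.32 ± 0.10), Ctxn1 (2.14 ± 0.07) and Shcbp1 (1.57 ± 0.09) rose most among its named genes. The same 25 genes had a median of -0.014 in null minus wild type and 0.92 in rescue minus wild type. The 708 genes after this run had a median of -0.093, with 8.19% called higher and 16.5% called lower, and they hold another higher stretch of 25 genes, from Lsm1 to Fut10 (median 0.34, 10 called higher and 0 lower). On chromosome 9, 25 genes from Gm4894 to Hoatz had a median of 0.58, with 15 called higher and 0 lower, led by Dixdc1 (from 12.2 and 15.8 to 217 and 179, 2.83 ± 0.13) and the neural cell adhesion gene Ncam1 (from 139.9 and 159 to 664 and 709, 2.09 ± 0.09). The same 25 genes of chromosome 9 had a median of -0.16 in null minus wild type and 0.32 in rescue minus wild type. Weaker runs of 25 genes were higher on other chromosomes. On chromosome 15 the run from Gcat to Syngr1 had a median of 0.35, with 10 called higher and 0 lower. Runs with medians of 0.30 to 0.32 lay on chromosomes 15, 4, 5 and 2. These runs were picked from 14347 overlapping windows by their values and have no test, and what sets the shifts by position was not tested.

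**Figure D5:**
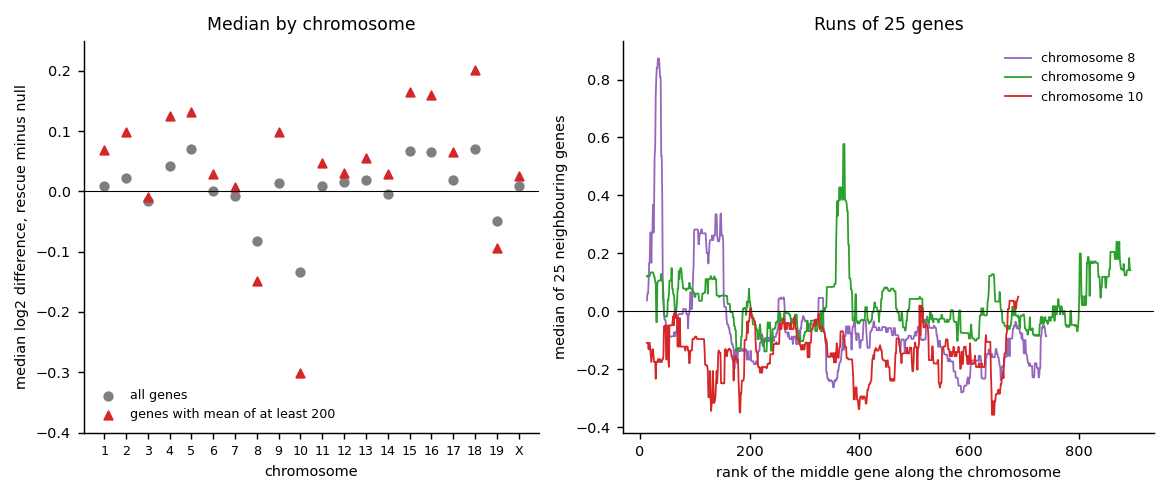
Left, median log2 difference (rescue minus null) of all genes (circles) and of genes with a mean intensity of at least 200 (triangles) on each chromosome; chromosome 10 is lowest, at -0.13 and -0.30. Right, median of each window of 25 neighbouring genes against gene rank along chromosomes 8, 9 and 10, with peaks of 0.87 and 0.58 on chromosomes 8 and 9.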

How the data were processed

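Per the labels, the deposited intensity values are PLIER values of core exons, for which the submitters' processing notes give Affymetrix Expression Console and the design text gives another tool, the Exon Array Computational Tool. How background was corrected and arrays were normalized, with which versions and build, is not given in these sources. The values had no detection p-values, and their range showed a linear scale.

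From them, log2(intensity + 16) was modelled with 1 mean per line on 6 arrays (lmFit and trended eBayes of limma 3.58.1 under R 4.3.3), leaving 3 residual degrees of freedom. The number of arrays limits the precision. Tests were two-sided and moderated, and p-values were adjusted by Benjamini-Hochberg over 23332 clusters. Symbols came from the platform annotation (14996 clusters with 1 symbol, 1019 with several, 7317 with none), and 14941 matched the RefSeq gene table of GRCm38.p6 by Entrez identifier; for 135 symbols with several clusters, lists used the brightest. Replicate numbers did not pair the samples, since same-numbered null and rescue arrays deviated with a correlation of -0.023. The members, the 50 gene lists (1265 of 1540 entries measured) and the naming rule were chosen with earlier results of these data known. The rule took Itga3, Itgb1, the 15 largest rises and falls (1 symbol, called under 3 scalings, not overlapping), up to 8 called members per list by adjusted p, genes reported for α3β1, keratinocyte markers, genes below 16 in 1 line and at 200 or more in the other with their neighbours, and genes of the runs. Values of marker genes outside it (Ptprc, Pecam1, Col1a1) were picked after their levels were seen. Figures were drawn with matplotlib 3.10.9.

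Among 23332 simulated clusters, the fit recovered 9, 35, 49 and 48 of 50 changed at log2 changes of 0.5, 1, 2 and 3. Of its 148 calls 7 were false. The simulation used normal noise, independent between clusters, without a shift of whole arrays. Few clusters were changed and none of them was dim, so these rates need not hold for the 3585 real calls. The 14 alternatives are given in the closing section; counts of lists without chromosomes 8 and 10 and chromosome medians over bright genes were added after seeing the data.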

Additional observations from a re-analysis of the deposited data

How the results depend on the processing

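No called named gene changed sign in the 14 alternatives (0 reversed), and of 323 called named genes 183 stayed called in each fit that held the gene. A pseudocount of 64 left 242 clusters 2-fold higher and 73 lower. Lower calls numbered 2258 with median centring, 727 without the variance trend and 767 with only null and rescue arrays. Leaving out an array gave 860 to 1811 higher and 378 to 878 lower calls, most without rescue array 2; the lone array of a line is then assumed to vary like the others. Itga3 was 0.29 with quantile normalization, 0.23 with centring, 0.35 without the trend and with only null and rescue arrays, and from 0.29 to 0.42 when an array was left out. The cause of these changes was not tested; fewer arrays leave fewer degrees of freedom. Replicate numbers do not pair the arrays (correlation -0.023), and with replicate number as a replicate block 2031 clusters were higher and 1093 lower. Of 1400 recomputed list counts 366 moved by over 1.5 times. Signal near background limits dim genes: 10.1% to 10.7% of clusters lay below 16.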

Other observations

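Of 29 cathepsin and lysosome genes 7 rose and 3 fell (24.1% and 10.3%, beside 11.7% and 6.78% of all genes with a symbol), with 3 and 3 under all 3 scalings. Cathepsin A (Ctsa), a carboxypeptidase that protects β-galactosidase in the lysosome, fell from 1885 and 2212 to 556 and 548 (-1.86 ± 0.09, limma adjusted p = 0.000250), with wild type at 2852 and 2938, while the aminopeptidase gene Ctsh rose from 1231 and 1309 to 3648 and 3054 (1.38 ± 0.10) and β-glucuronidase (Gusb) from 400.3 and 389 to 832 and 749.5 (0.97 ± 0.08). Igf2r, the imprinted receptor that takes lysosomal enzymes and IGF2 to the lysosome, fell from 232 and 238 to 109 and 126 (-0.91 ± 0.09; wild type 446 and 467). Of 24 imprinted genes 3 rose and 3 fell (12.5% each). Of 32 Hox genes 1 rose and 2 fell (3.1% and 6.25%), each in a call that at least 1 other fit ended. Hoxa11, listed at 5.20 and 3.97 in wild type, was at 1459 and 1532 and 1027 and 995 (-0.56 ± 0.08, lost without null array 2). Of 24 Notch genes 2 rose (8.33%) and 0 fell, and of 10 ribosomal protein genes 1 rose (10%).

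Of 13 metallothionein and iron genes 4 rose and 2 fell (2 and 2 under all 3 scalings). The ferrireductase gene Steap3 rose from 139 and 126 to 262 and 240.3 (0.85 ± 0.09), and the zinc importer gene Slc39a10 fell from 2087 and 2337 to 1427 and 1517 (-0.58 ± 0.08). Among 30 regulators of small GTPases 4 rose and 3 fell (13.3% and 10%). Arhgef7, an exchange factor for Rac and Cdc42 that binds PAK, rose from 401 and 404 to 781 and 830.3 (0.97 ± 0.07); it ends the chromosome 8 run. Of 28 cholesterol genes 3 rose and 2 fell (10.7% and 7.14%, near the 11.7% and 6.78% of all genes with a symbol). The sterol exporter gene Abcg1 went up from 135 and 136 to 231 and 236 (0.72 ± 0.09). Of 34 ERK feedback and immediate early genes 5 rose and 2 fell (14.7% and 5.88%). Without chromosomes 8 and 10 the falls were 0 of 26. Among the rises, Dusp10, a phosphatase of stress kinases, went from 511 and 519 to 836 and 759.9 (0.62 ± 0.08).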
